A study of Mus musculus with 14 samples.

Results

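The Hox genes encode homeodomain transcription factors that lie in 4 clusters in the mouse genome, each cluster a row of paralogues numbered in the order in which the genes are used along the body axis. Cell types that do not use a cluster hold it under Polycomb repressive complexes, which place trimethylation on lysine 27 of histone H3 (H3K27me3). Acetylation of the same residue (H3K27ac) marks active promoters and enhancers, and a single histone tail cannot carry both at that lysine. UTX, the product of Kdm6a, can remove H3K27me3 and is also a subunit of the MLL3 and MLL4 complexes found at enhancers. In blood, Hoxa9, Hoxa10, Hoxa7, Hoxb3 and Hoxb4 are known from stem and progenitor cells, where their products bind DNA with MEIS and PBX partners, and HOXA9 and MEIS1 are a well-known pair in myeloid leukaemia.

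Of 21883 protein-coding genes on placed chromosomes in the RefSeq annotation of the mm10 assembly, 39 have a symbol of Hoxa, Hoxb, Hoxc or Hoxd followed by digits, and 38 of them are described: 10 in Hoxa (chr6:52155367-52260880), 10 in Hoxb (chr11:96194316-96368254), 9 in Hoxc (chr15:102921131-103036856) and 9 in Hoxd (chr2:74668225-74765142). The genes were chosen by name, and no measured value entered the choice. The libraries are ChIP-seq of bone marrow progenitors depleted of cells with lineage markers (Lin-) with a Miltenyi kit, from C57BL/6 mice with the genotype UTX WT or UTX KO (Utx-/-). H3K27me3 and H3K27ac were each measured in 2 WT and 2 KO libraries, and UTX in 2 WT libraries, beside 1 IgG library from WT that, by its label, was made as a control for BCOR. The labels give no age, sex, Cre driver or deleted exons, and do not say whether libraries 1 and 2 came from separate animals. The deposited values are counts of reads in islands, stretches that the SICER caller found enriched in a single library, so a place with no island has no value, and its signal is unknown rather than 0. Values below are reads per 1000000 island reads of the library (rpm) over a gene and 5 kb on either side, which is called the gene window, with the reads of a longer island shared out by overlap.

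Depth in islands was 2347442 to 2743508 reads for H3K27me3, 9330823 to 15256696 for H3K27ac, 816567 and 1834418 for UTX, and 154029 for IgG. The islands bear on the genotype labels only indirectly, since the Kdm6a window held H3K27ac islands in all 4 libraries, at 197 and 102 rpm in WT and 181 and 185 rpm in KO, and UTX was not precipitated from KO cells. All 7 progenitor markers (Kit, Cd34, Flt3, Myb, Gata2, Mpo and Runx1) carried H3K27ac in all 4 libraries. By edgeR, Kit (-0.45, adjusted p = 0.0370) and Flt3 (-0.47, adjusted p = 0.0415) had less of it in KO and none of the 7 had more, with a median log2 fold change of -0.45 and sums of 2338 to 2444 rpm in WT and 2247 to 2411 rpm in KO. Cd34 was at -0.61 (edgeR adjusted p = 0.0527). Marker genes of other cell types moved with the genotype too: 2 of 3 B cell markers had more H3K27ac in KO (Pax5 and Ebf1, which with Cd79a summed to 116 to 125 rpm in WT and 332 to 440.2 rpm in KO), and 4 of 4 erythroid markers had less (Gata1, Klf1, Epor and Hbb-bt, 339 to 363 rpm against 158 to 176 rpm). Of the 3 T cell markers Cd3d had more H3K27ac in KO and Cd3e had none in any library, with sums of 26.0 to 34.5 rpm in WT and 48.4 to 71.0 rpm in KO. Among 7 stromal and endothelial markers Cdh5 and Pecam1 had more and Kdr less, with sums of 273 to 275 rpm against 398 to 419 rpm, while Col1a1, Col1a2, Pdgfra and Cxcl12 had no H3K27ac island. Over all windows tested, edgeR called 12.2% lower and 10.8% higher in KO, and the markers were chosen with earlier results of these data known. The part of the marker shifts in the Hox values below was not tested, and in a bulk preparation fewer cells with a mark and less mark per cell cannot be told apart.

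Promoter sequences show where the marks lay at the genes the comparison turns on. They are from RefSeq (build GRCm38.p6), run from 250 bases before to 50 bases after the annotated start, are written 5′ to 3′ on the gene's strand, and have each CG pair in capitals. The first belongs to Hoxa9, whose promoter lay in H3K27ac and H3K27me3 islands of all 8 histone libraries. The second belongs to Hoxb4, with H3K27ac in all 4 libraries and H3K27me3 in a single library, KO 1. The third is that of Hoxd13, with H3K27me3 in all 4 libraries and no H3K27ac. The last is that of Hoxa5, which no island of either mark met in any library.
Hoxa9 (chr6:52227321-52227620, minus strand): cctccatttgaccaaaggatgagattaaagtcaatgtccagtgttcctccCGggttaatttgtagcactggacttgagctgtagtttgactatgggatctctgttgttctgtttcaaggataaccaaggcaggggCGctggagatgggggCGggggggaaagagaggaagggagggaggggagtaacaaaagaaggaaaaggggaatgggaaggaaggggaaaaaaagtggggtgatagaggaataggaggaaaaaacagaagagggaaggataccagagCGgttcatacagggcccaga
Hoxb4 (chr11:96318017-96318316, plus strand): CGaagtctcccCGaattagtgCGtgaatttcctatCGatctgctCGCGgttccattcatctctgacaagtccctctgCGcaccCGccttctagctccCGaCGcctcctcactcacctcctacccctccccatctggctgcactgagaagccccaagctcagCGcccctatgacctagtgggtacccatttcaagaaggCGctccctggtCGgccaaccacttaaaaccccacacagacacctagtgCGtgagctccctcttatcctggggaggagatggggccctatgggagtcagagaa
Hoxd13 (chr2:74667975-74668274, plus strand): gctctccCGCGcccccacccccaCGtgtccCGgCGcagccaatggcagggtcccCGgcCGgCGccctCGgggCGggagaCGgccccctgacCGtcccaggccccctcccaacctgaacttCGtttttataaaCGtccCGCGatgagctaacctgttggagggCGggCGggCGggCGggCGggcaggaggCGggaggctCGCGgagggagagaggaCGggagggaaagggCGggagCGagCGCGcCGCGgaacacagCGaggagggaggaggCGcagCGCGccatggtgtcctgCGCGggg
Hoxa5 (chr6:52204538-52204837, minus strand): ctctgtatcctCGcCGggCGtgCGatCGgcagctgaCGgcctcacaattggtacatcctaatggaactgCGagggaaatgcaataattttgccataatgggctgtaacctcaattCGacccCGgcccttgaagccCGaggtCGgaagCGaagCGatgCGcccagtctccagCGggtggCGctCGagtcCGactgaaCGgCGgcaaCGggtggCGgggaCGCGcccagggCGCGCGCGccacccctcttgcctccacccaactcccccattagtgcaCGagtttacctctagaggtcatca
These windows held 4, 14, 37 and 29 CG pairs for Hoxa9, Hoxb4, Hoxd13 and Hoxa5. The RefSeq promoter table held 24 windows for 22 of the 38 genes, with a median of 14.5 CG pairs (4 to 45), against 7 over all 32851 promoters in the table. H3K27me3 islands met 22 of the 24 windows in all 4 libraries, all but those of Hoxb4 and Hoxa5, against 12.1% of all promoters. H3K27ac islands met 4 in all 4 libraries (Hoxa3, Hoxa7, Hoxa9 and Hoxb4), against 38.3%, and 20 in none, against 54.3%. Both UTX libraries met 1 window, that of Hoxa3, against 23.1%.

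Motifs were searched on both strands of the promoter windows. The GC box GGGCGG was in 10 of 24 Hox windows and in 35.7% of all promoters, the Meis motif TGACAG in 2 (Hoxa2 and Hoxa3) against 19.2%, and the Hox-Pbx motif TGATTNA in 4 (Hoxa2, Hoxb1, Hoxd8 and Hoxd11) against 10.3%. The ETS motif CCGGAA was in 2 (Hoxa10 and Hoxd12) against 14.9%, and the GATA motif AGATAAG was in none against 3.04%. A match is a run of letters and not a measured binding site.

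The clusters also hold 5 microRNA genes, which are shown because their hairpins differ in the marks they met. The mature 5p sequences, from RefSeq (GRCm38.p6), have the seed (bases 2 to 8) in capitals and form 2 seed families.
miR-196b-5p, of Mir196b between Hoxa9 and Hoxa10: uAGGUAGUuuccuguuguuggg
miR-196a-5p, of Mir196a-1 between Hoxb13 and Hoxb9 and Mir196a-2 between Hoxc10 and Hoxc9: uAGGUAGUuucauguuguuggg
miR-10a-5p, of Mir10a within the Hoxb3 gene span: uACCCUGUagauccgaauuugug
miR-10b-5p, of Mir10b within the Hoxd3 and Hoxd4 gene spans: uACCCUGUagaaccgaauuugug
The miR-196 pair shares AGGUAGU and the miR-10 pair shares ACCCUGU. The Mir196b hairpin lay in H3K27ac and H3K27me3 islands in all 4 libraries of each mark and in an island of UTX library 2. The hairpins of Mir196a-1, Mir196a-2 and Mir10b lay in H3K27me3 islands in all 4 libraries and met no H3K27ac island. Over all 1005 hairpins in the table, H3K27ac islands in all 4 libraries met 16.4% and H3K27me3 islands in all 4 met 5.97%. Mir10a (chr11:96317165-96317274) lay in H3K27ac islands in both WT libraries and KO 1 but not KO 2, where the nearest H3K27ac islands were 765 and 127 bases away. It lay in H3K27me3 islands in both KO libraries and neither WT library, which for H3K27me3 alone held for 0.697% of hairpins. In WT the nearest H3K27me3 islands ended 565 and 365 bases short of the hairpin. The island's edge lay 4 and 3.8 kb further on in KO 1, and 1.4 and 1.2 kb further on in KO 2, than in WT 1 and WT 2.

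**Figure D1:**
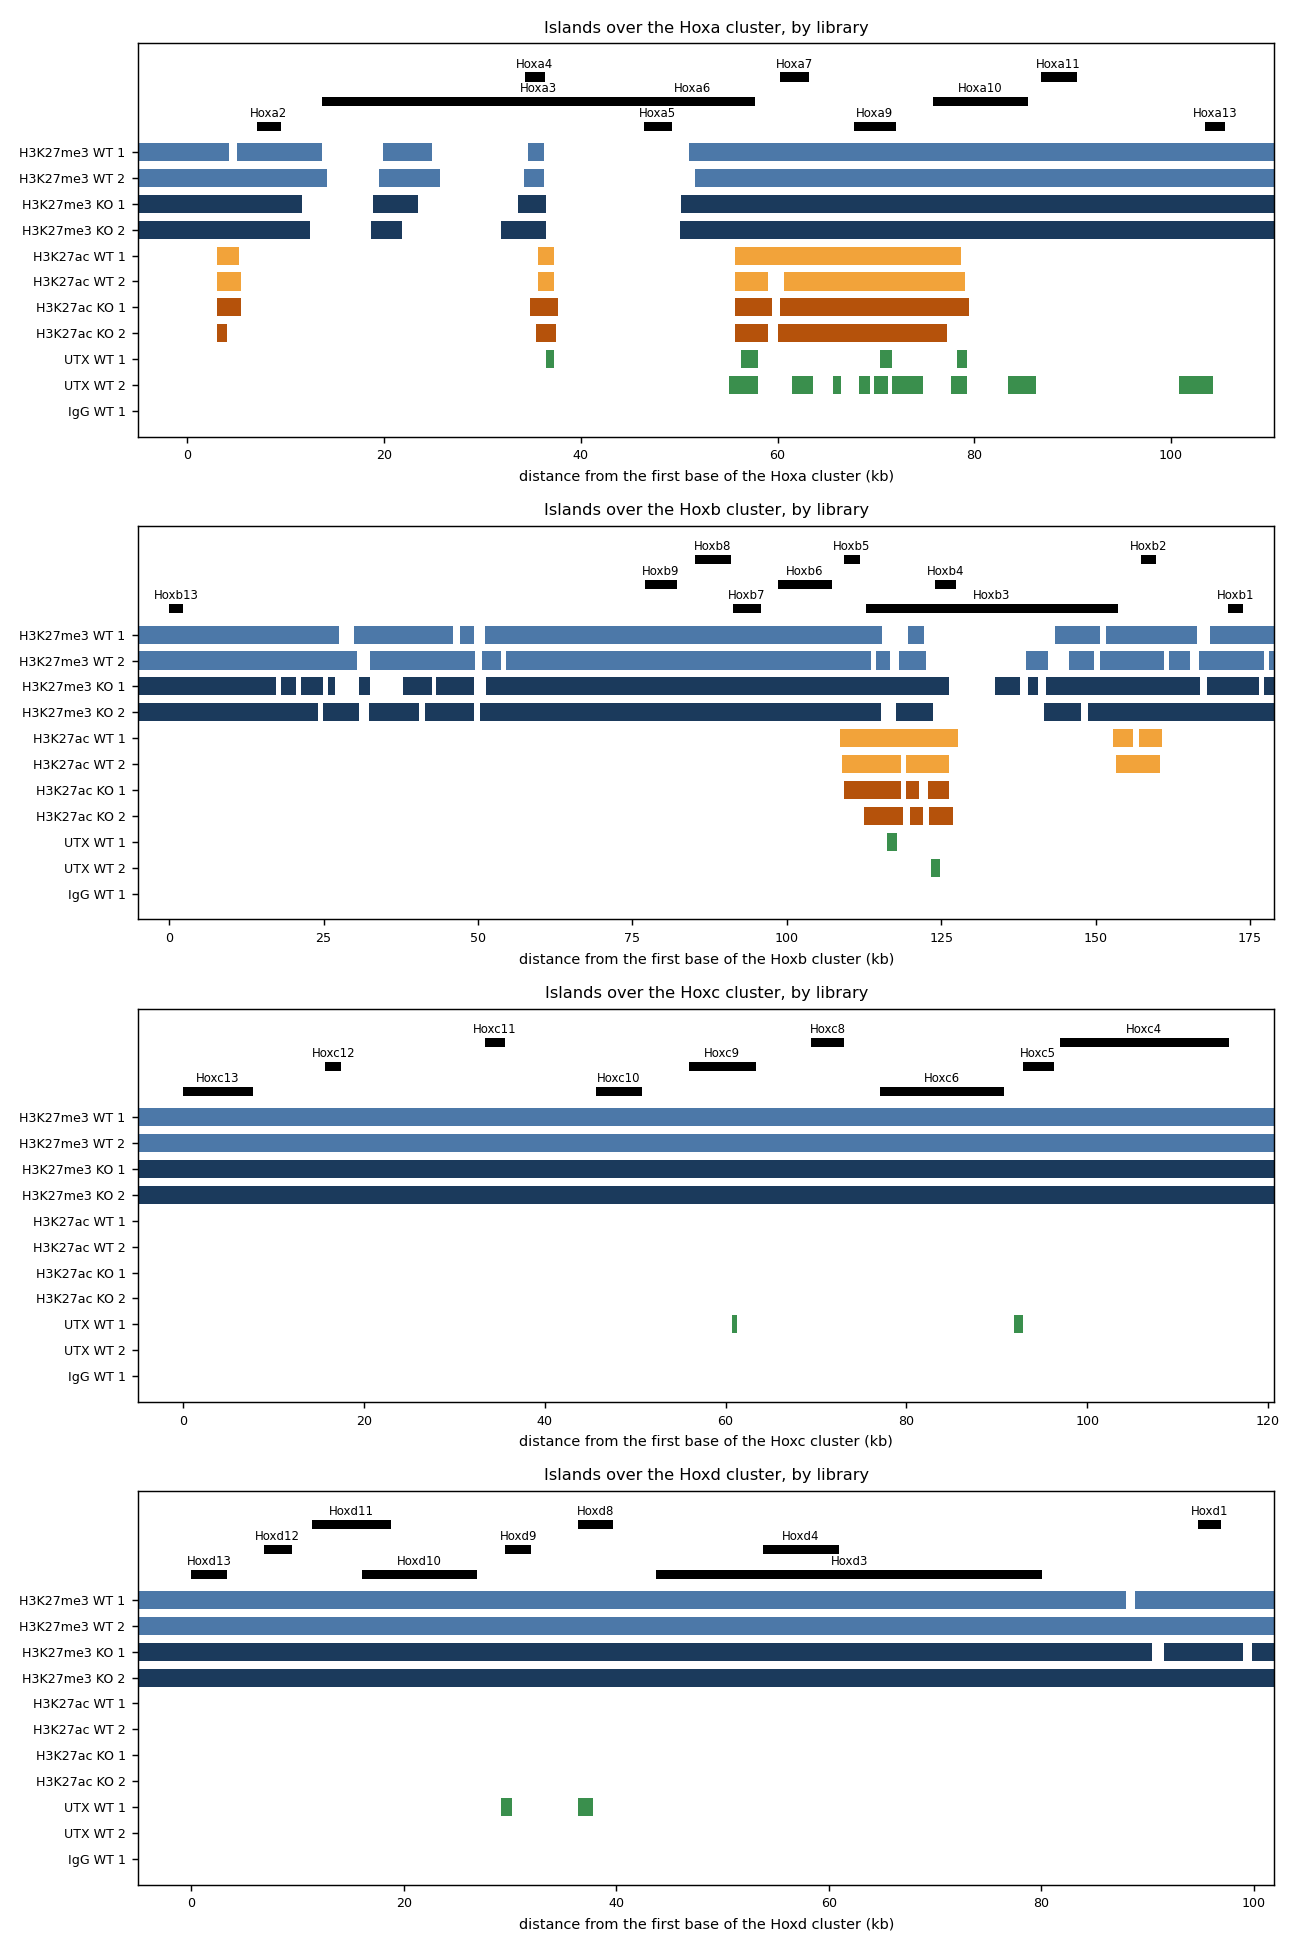
Islands of each library over the 4 Hox clusters. The x axis is the distance in kb from the first base of each cluster, each row is a library, bars are islands, and black bars at the top are the genes described; H3K27ac bars are seen at Hoxa and Hoxb and at neither Hoxc nor Hoxd, while H3K27me3 covers Hoxc from end to end in all 4 libraries.

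H3K27me3 was the common state of the Hox genes in both genotypes. All 38 gene windows met an H3K27me3 island in all 4 libraries, against 24.6% of all protein-coding genes (30.3% in both WT and 26.6% in both KO libraries). None gained or lost the mark in this sense between genotypes, where 0.489% of all genes had islands in both KO libraries only and 2.25% in both WT libraries only. H3K27ac was found at a minority: 26 of 38 windows met no H3K27ac island in any library (34% of all genes), among them all 9 Hoxc and all 9 Hoxd genes, Hoxa5, Hoxa11 and Hoxa13, and Hoxb1, Hoxb7, Hoxb8, Hoxb9 and Hoxb13. The 12 windows with H3K27ac in both WT libraries (61.3% of all genes) were those of Hoxa2, Hoxa3, Hoxa4, Hoxa6, Hoxa7, Hoxa9, Hoxa10 and of Hoxb2 to Hoxb6. All 12 also carried H3K27me3 in both WT libraries, a pair of marks present at 16.6% of all genes. In both KO libraries H3K27ac was at 10 windows (60.7% of all genes), all but those of Hoxb2 and Hoxb6, and these 10 carried it in all 4 libraries (58.8%) and had both marks in KO (13.8%).

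The methylated stretches were among the longest called. The 9 Hoxc genes lay in a single island that was the widest of 18847, 20412, 15743 and 14665 H3K27me3 islands in WT 1, WT 2, KO 1 and KO 2 and held the second most reads in each, at 10647, 10094, 8541 and 9576 reads. It spanned 253 and 191 kb in WT and 149 and 168 kb in KO. The difference lay beyond Hoxc4, where the island ended 231 and 171 kb from the start of the cluster in WT and 128 and 151 kb in KO, and of regions of 30 kb or more 30.8% were covered over less length in both KO libraries than in both WT libraries. Joined with the islands next to it, the Hoxc domain was covered over 401 and 379 kb in WT and 347 and 388 kb in KO, ranges that overlap.

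At Hoxd, an island of 114 and 131 kb in WT and 119 and 129 kb in KO held Hoxd3 to Hoxd13 and ranked 2 or 3 by width. Hoxd1 lay in the same island in WT 2 and KO 2 and in an island of its own in WT 1 and KO 1. At Hoxa, an island of 78.8 and 78 kb in WT and 77.0 and 91.2 kb in KO began within Hoxa6 and ran past Hoxa13, reaching over the start of Hoxa3, whose long span overlaps its neighbours. Hoxa2, Hoxa4 and the rest of Hoxa3 met shorter islands, and no H3K27me3 island met the Hoxa5 gene itself, although islands met its window. The Hoxb cluster was the most broken, with 8 and 12 islands in WT and 13 and 8 in KO.

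H3K27me3 density set the Hox genes near the top of the marked genes. The median over the 38 windows was 15.3 and 21.6 rpm per kb in WT and 23.8 and 22.7 rpm per kb in KO, at the 98.7, 99.0, 99.5 and 99.3 percentile of genes with the mark in each library, and the medians over all marked genes were 1.46, 1.34, 1.70 and 1.65 rpm per kb. WT 1 was the low library here. Because reads were shared out evenly along an island, genes inside one island have the same density by construction: the 9 Hoxc genes share 15.3, 21.6, 24.5 and 22.7 rpm per kb, and Hoxa7, Hoxa9, Hoxa10, Hoxa11 and Hoxa13 share 15.1, 22.5, 24 and 20.7 rpm per kb, in WT 1, WT 2, KO 1 and KO 2.

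**Figure D2:**
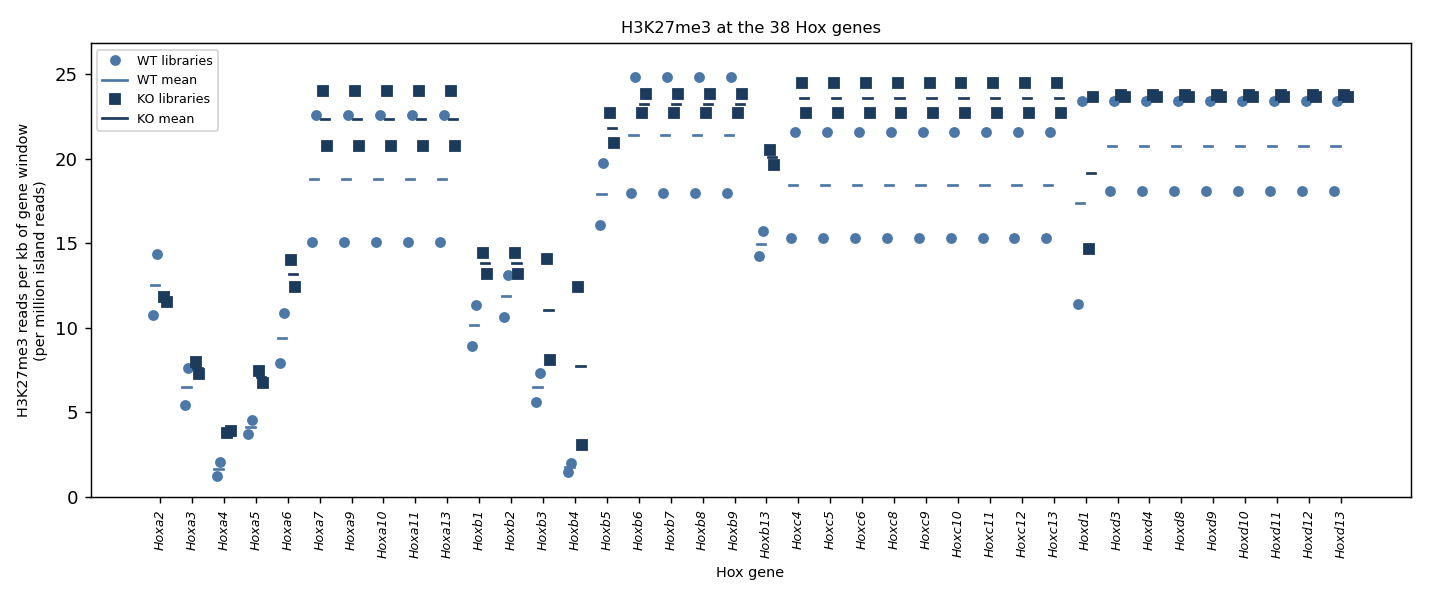
H3K27me3 in each library at the 38 Hox genes. The y axis is rpm per kb of gene window, points are libraries and short lines are the means of 2 libraries; values run from 1.27 rpm per kb at Hoxa4 in WT 1 to 24.8 rpm per kb at Hoxb6 to Hoxb9 in WT 2, and Hoxa4 and Hoxb4 are lowest in WT.

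The next question was whether loss of UTX, which can demethylate H3K27me3, went with more of that mark at the Hox genes. No Hox gene passed the test: edgeR's quasi-likelihood test called 0 of 38 windows, and 0% of the 5393 windows tested genome-wide (481 had an unadjusted p under 0.05, and DESeq2 called 58). Estimates were above 0 for 37 of 38, with a median log2 fold change (KO over WT) of 0.18 against -0.01 over all windows tested. This direction depended in part on WT 1, the low library. At Hoxb6 to Hoxb9, WT 2 alone held 24.8 rpm per kb, above the 22.7 and 23.8 rpm per kb of the KO libraries. In 26 of 38 windows both KO libraries were higher than both WT libraries, which held for 24.9% of windows tested. The whole islands, joined across libraries, gave 9 tested regions at the Hox clusters, of which 0 were called, against 0.0148% of 6771 regions tested, a single region that was lower (522 had an unadjusted p under 0.05, and DESeq2 called 34). Without WT 1, the region estimates were -0.062 at Hoxa2, -0.073 from Hoxa6 to Hoxa13, -0.028 at Hoxc and -0.086 at Hoxd. The region within Hoxa3 was below 0 with and without WT 1 (-0.49 and -0.71). Those at Hoxb and Hoxa4 stayed above 0 without it, from 0.013 to 0.79. The 26 windows rest on few islands, since 9 of them are the Hoxc island and 8 the large Hoxd island. In those 8 Hoxd windows the gap is small, with 18.1 and 23.4 rpm per kb in WT and 23.8 and 23.7 rpm per kb in KO. In simulated data the fit called 25 of 100 changes of 2-fold, placed at random among all H3K27me3 windows tested. For windows in general, the absence of calls therefore does not exclude changes of that size. Recovery at the Hox windows alone, which are among the densest, was not simulated. The SE of their log2 fold changes ran from 0.166 at Hoxd3 to 0.662 at Hoxb4.

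Cluster sums, each over the cluster and 5 kb on either side, were 1162 and 1691 rpm in WT and 1788 and 1571 rpm in KO for Hoxa, which overlap. Hoxb had 2087 and 2612 rpm in WT and 2930 and 2797 rpm in KO, and Hoxc 1927 and 2711 rpm in WT and 3074 and 2855 rpm in KO, so that both KO libraries were above both WT libraries. Hoxd had 1831 and 2500 rpm in WT and 2430 and 2529 rpm in KO, which overlap. The log2 ratios of the means were 0.24 for Hoxa, 0.29 for Hoxb, 0.35 for Hoxc and 0.20 for Hoxd. Without WT 1, the low library, they were -0.01, 0.13, 0.13 and -0.01 in that order. An exact permutation test, two-sided, gave p = 0.667, 0.333, 0.333 and 0.667 in that order, where 0.333 is the smallest p that 2 against 2 libraries allow. For Hoxc the sign depended on how reads were shared out: with all reads of every island met, the log2 ratio was -0.10.

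The 2 largest H3K27me3 estimates were at windows with little of the mark in WT. Hoxb4, a gene used to expand blood stem cells in culture, had 1.5 and 2.01 rpm per kb in WT and 12.4 and 3.08 rpm per kb in KO. The KO libraries were both above WT but far from each other: the large Hoxb island of KO 1 ran on into Hoxb4, while in KO 2 a separate island ended just short of the gene. The log2 fold change was 2.06 (SE 0.662, edgeR adjusted p = 0.497). Hoxa4 had 1.27 and 2.10 rpm per kb in WT and 3.76 and 3.92 rpm per kb in KO, a log2 fold change of 1.12 (SE 0.398, edgeR adjusted p = 0.522), with all values from a small island of 42, 62, 106 and 118 reads. Hoxa5, at 3.74 and 4.55 against 7.45 and 6.76 rpm per kb, and Hoxb3, at 5.59 and 7.36 against 14.0 and 8.10 rpm per kb, also stood higher in both KO libraries, with an edgeR adjusted p = 0.553 for each.

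**Figure D3:**
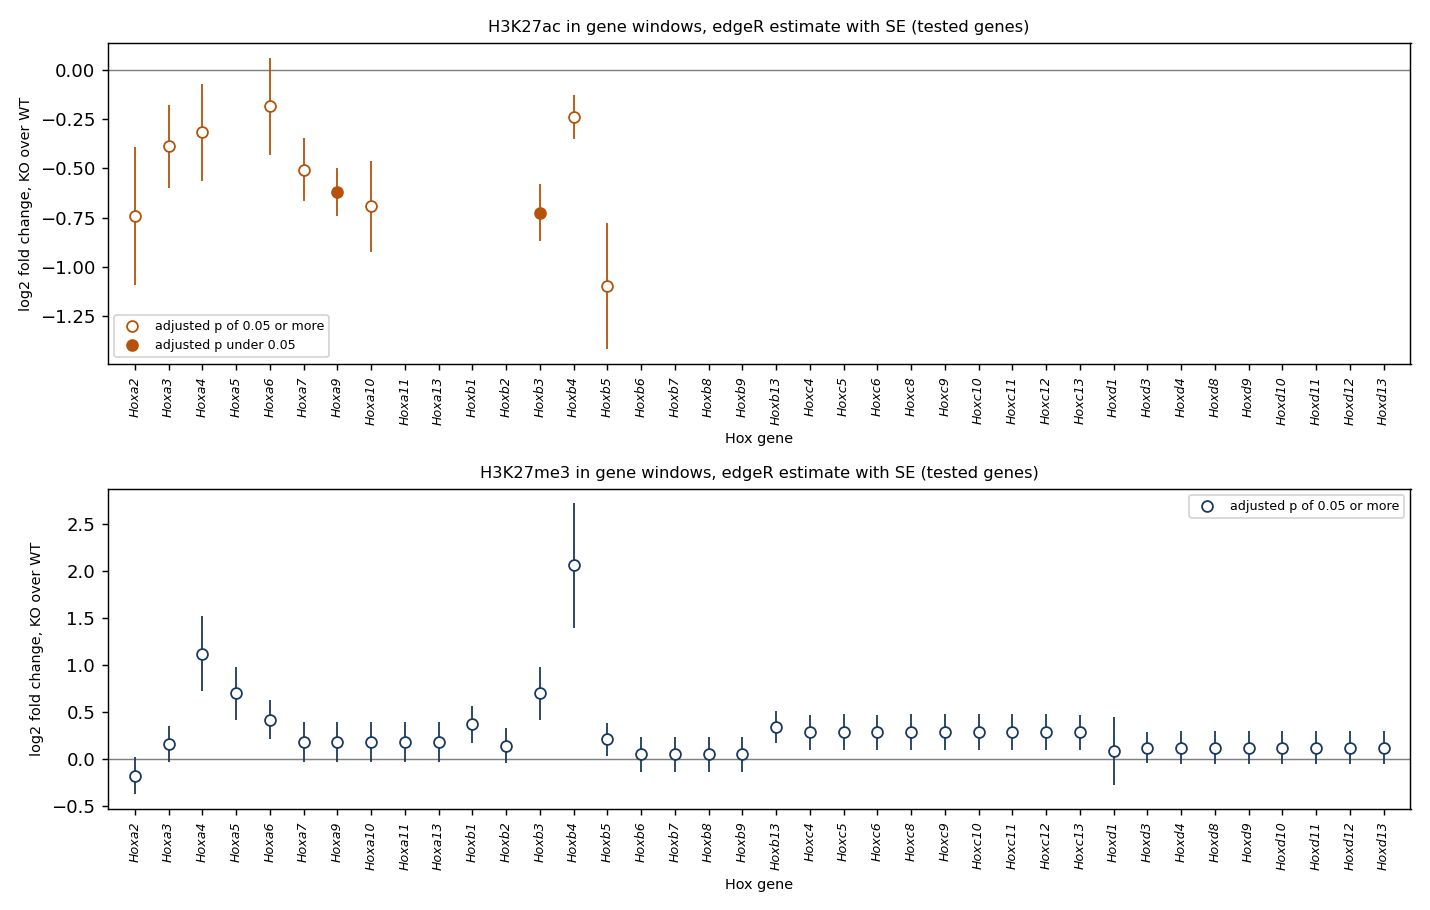
Log2 fold change of KO over WT for each Hox gene window, with H3K27ac above and H3K27me3 below. Points are edgeR estimates from 2 WT and 2 KO libraries, bars are 1 SE, and filled points have an adjusted p under 0.05. All 10 H3K27ac estimates are below 0 and 37 of 38 H3K27me3 estimates are above 0. The H3K27me3 direction depends in part on WT 1, the low library for that mark.

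The same comparison for H3K27ac found 2 Hox genes with less of the mark in KO. Hoxa9 and Hoxb3 passed edgeR's test as lower, 2 of the 10 windows tested (those with an island in all 4 libraries, which leaves out Hoxb2 and Hoxb6), and none as higher, where 12.2% of the 12863 windows tested genome-wide were called lower and 10.8% higher. All 10 estimates were below 0, with a median log2 fold change of -0.56 against 0.01 over all windows tested. In 7 of 10 windows both KO libraries were below both WT libraries, against 28.3% of windows tested. The 10 windows are not 10 independent measurements, because they rest on 4 stretches of H3K27ac islands, at Hoxa2, at Hoxa4, from the Hoxa3 start to Hoxa10 and from Hoxb5 to Hoxb4. The Hoxb3 window also takes in part of another stretch, next to Hoxb2, in WT.

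Hoxa9 had the highest H3K27ac density of the Hox genes in WT, 10.6 and 9.94 rpm per kb, with islands over its whole window in all 4 libraries. Its window held 151 and 142 rpm in WT and 106 and 90.4 rpm in KO, so that the WT libraries were the higher pair with no overlap. The difference was -0.62 (log2, SE 0.122, edgeR adjusted p = 0.0216). The call was lost without WT 1 (adjusted p = 0.0815), without WT 2 (0.0967) and without KO 2 (0.0836), and was kept without KO 1. It was also lost with whole island reads (0.0692) and per kb of island (0.231), with the estimate unchanged at -0.62 in the latter.

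Hoxa7 and Hoxa10, on either side of Hoxa9, shared its island in part. Hoxa7 had 133 and 97.9 rpm in WT and 88.9 and 77.6 rpm in KO (a difference of -0.51, SE 0.161, edgeR adjusted p = 0.0781). Hoxa10 had 82.7 and 81.5 rpm in WT and 63.7 and 40.6 rpm in KO (-0.69, SE 0.232, edgeR adjusted p = 0.0896). For both genes the KO pair was below the WT pair without overlap. At the front of the cluster the differences were within the spread of the libraries: Hoxa3, the longest Hoxa gene, had 89.4 and 55.8 rpm in WT and 57.7 and 55.6 rpm in KO, Hoxa4 had 14.5 and 12.7 against 9.62 and 12.9 rpm, and Hoxa6 had 28.3 and 17.8 against 21.0 and 20.3 rpm. Hoxa2, which patterns the hindbrain and branchial arches, had 10.1 and 7.67 against 6.64 and 4.14 rpm, all from an island of 46 to 117 reads beside the gene (-0.74, SE 0.350, edgeR adjusted p = 0.189).

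Whole islands were also joined across libraries and tested with their counts as deposited, so that no reads were shared out, and the centre of Hoxa passed as lower. The region chr6:52211001-52234800, which overlaps Hoxa3, Hoxa7, Hoxa9 and Hoxa10, held 244 and 205 rpm in WT and 172 and 135 rpm in KO, from 1499 to 3134 reads. Its log2 fold change was -0.66 (SE 0.135, edgeR adjusted p = 0.0136), where 14% of all 18820 regions tested were called lower and 11.7% higher. Island cover hardly moved, at 23.0 and 21.8 kb in WT and 23.0 and 20.6 kb in KO. Within the region, the island over the Hoxa3 start was 6.65 rpm per kb in WT 2 and 7.86 and 7.59 rpm per kb in KO, while the island over Hoxa7, Hoxa9 and the 3′ part of Hoxa10 was 9.94 rpm per kb in WT 2 and 7.40 and 6.34 rpm per kb in KO. In WT 1 both were a single island of 10.6 rpm per kb. The call was lost without WT 1 (adjusted p = 0.0921), without WT 2 (0.0568), per kb of island (0.0509) and when regions called in as few as 2 libraries were added to the test (0.0733), with the estimate between -0.58 and -0.73.

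At Hoxb the acetylated stretch held fewer reads in KO and was also shorter. The region chr11:96303001-96322000, over Hoxb5, part of Hoxb3 and Hoxb4, held 138 and 103 rpm in WT and 86.8 and 78.4 rpm in KO. The log2 fold change was -0.65 (SE 0.133, edgeR adjusted p = 0.0136), with island cover of 19.0 and 16.6 kb in WT and 14.8 and 12.4 kb in KO. Per kb of island the estimate was -0.26 (adjusted p = 0.485), so that the call depended on cover, and it was also lost without WT 1 (0.0604) and when regions called in as few as 2 libraries were added to the test (0.0605). Hoxb3, the longest gene of the cluster, had 152 and 115 rpm in its window in WT and 86.8 and 78.4 rpm in KO (a difference of -0.72, SE 0.146, edgeR adjusted p = 0.0232), and its WT values include part of a stretch next to Hoxb2 that KO lacked. That call was lost without WT 1 (adjusted p = 0.0750), WT 2 (0.0538) or KO 2 (0.0935), with 2 kb in place of 5 kb on either side (0.0518) and per kb of island, where the estimate was 0.03 (0.971).

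The stretch did not change evenly. Hoxb5, at its far end, had 58.9 and 38.7 rpm in WT and 29.2 and 17 rpm in KO (-1.10, SE 0.320, edgeR adjusted p = 0.0625), and in KO 2 the islands began beyond the gene. Hoxb6 met the edge of the stretch at 25.9 and 16.4 rpm in WT and 11.5 rpm in KO 1, with no island in KO 2. Hoxb4, at the other end, had 63.4 and 56.0 rpm in WT and 51.0 and 53.2 rpm in KO (-0.24, SE 0.112, edgeR adjusted p = 0.188). In KO the island over the Hoxb4 promoter stood apart from the rest as a short piece of 3.4 and 3.8 kb with 12.2 and 12.1 rpm per kb, while in WT it was part of islands of 19.0 and 7.0 kb with 7.25 and 8.01 rpm per kb. With 2 kb on either side, the Hoxb4 estimate was 0.15 (adjusted p = 0.512).

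Hoxb2, a hindbrain regulator, had H3K27ac islands in both WT libraries and in neither KO library. They held 22.2 and 15.9 rpm, from 207 and 242 reads, and were a separate stretch of 7.8 kb (chr11:96347201-96355000) reaching over the distal end of Hoxb3. This pattern was seen at 1 of 38 Hox windows and 1.45% of all genes, and no Hox window had the reverse, seen at 1.1%. The main test left it out, since the files hold no count for the KO libraries there. A test of windows or regions with islands in at least 2 libraries takes a missing island as 0 reads. Hoxb2 enters it only through the WT islands, so its edgeR call as lower there adds nothing to the presence and absence of islands. H3K27me3 was present over 93.5 to 100% of the Hoxb2 window in all 4 libraries, at 10.6 and 13.1 rpm per kb in WT and 14.4 and 13.2 rpm per kb in KO.

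Summed over each cluster, H3K27ac was 268 and 226 rpm in WT and 188 and 152 rpm in KO at Hoxa, and 160 and 119 rpm in WT and 86.8 and 78.4 rpm in KO at Hoxb. The means were 247 ± 30.1 and 170 ± 25.7 rpm (SD, n = 2) at Hoxa and 139 ± 29.2 and 82.6 ± 5.91 rpm (SD, n = 2) at Hoxb, log2 ratios of -0.54 and -0.76. The KO libraries were below the WT libraries without overlap at both clusters, and the exact permutation test gave its smallest possible p = 0.333 for each. Island cover was 26.3 ± 0.707 kb in WT and 25.9 ± 3.25 kb in KO at Hoxa (SD, n = 2), and 24.8 ± 1.41 kb and 13.6 ± 1.70 kb at Hoxb. Per kb of island, Hoxb stood at 6.20 and 4.99 rpm in WT and 5.86 and 6.32 rpm in KO, which overlap.

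The 2 marks lay over each other more at Hoxa than at Hoxb. At Hoxa, 23.4 of the 25.2 kb that were acetylated in both WT libraries were also methylated in both, and 22.4 of 23.4 kb in KO. At Hoxb the shared length was 14.6 of 22.8 kb in WT and 5.8 of 10.8 kb in KO. Whether both marks sat on the same chromosomes or in different cells of the mixture cannot be told apart in these libraries.

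Islands of UTX itself were found at Hoxa in both libraries. The windows of Hoxa3, Hoxa6, Hoxa7, Hoxa9, Hoxa10 and Hoxb3 met UTX islands in each of the 2 libraries without an IgG island, 6 of 38 Hox windows against 40.3% of all genes. With either library counted, 18 of 38 did, against 59.1%. No Hox window met an IgG island (4.8% of all genes). All 6 were among the windows with H3K27ac in both WT libraries, a state of 61.3% of all genes. The share with H3K27ac among all genes with UTX islands was not computed, so no link particular to Hox genes can be read from this. The 6 windows are not separate sites, since in library 1 those of Hoxa3, Hoxa6 and Hoxa7 shared an island of 51 reads at the Hoxa3 start. UTX library 1, the shallower, had 4 islands at Hoxa and library 2 had 9. They overlapped at the Hoxa3 start, within Hoxa9 and in the 3′ part of Hoxa10, and in the Hoxa9 window UTX stood at 64.9 and 236 rpm. Library 2 also had islands outside the H3K27ac islands, at the Hoxa10 promoter (106 reads, 57.8 rpm) and at Hoxa13 (128 reads, 69.8 rpm).

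At Hoxb each UTX library had a single island, at different places within the Hoxb3 span, with 41 and 69 reads. The 2 islands at Hoxc and the 2 at Hoxd were all from library 1, with 25 to 55 reads, and library 2 had none there. Either library alone met 15 and 9 Hox windows, against 49.1% and 52.3% of all genes, so the UTX result at single genes depended on the library.

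The nearest protein-coding genes outside the clusters give a comparison, though some lie far from the cluster. The 3 nearest on each side of the 4 clusters were taken. For H3K27ac, edgeR called 1 of 3 tested above Hoxb, 1 of 3 below Hoxc and 1 of 3 above Hoxd. On the other sides none of those tested was called, and 23% of all windows tested were called in either direction. Snx11, beyond Skap1 from Hoxb, rose (0.50, edgeR adjusted p = 0.0339). Atp5g2, beyond Calcoco1 from Hoxc, fell (-0.54, edgeR adjusted p = 0.0277). Gm50595 (chr2:75451974-75633917), beyond Mtx2 from Hoxd and not adjoining the cluster, had 129 and 152 rpm in WT and 9.48 and 14.8 rpm in KO. Its log2 fold change was -3.60 (SE 0.239, edgeR adjusted p = 0.00267), while Hoxd itself had no H3K27ac island. Evx1 and Evx2, homeobox genes next to Hoxa13 and Hoxd13, had H3K27me3 in all 4 libraries and no H3K27ac island. So did Gsx1, Gsx2 and Pdx1, which belong to the ParaHox family, so that all 5 related genes were in the state of Hoxc and Hoxd. Over all genes, 24.6% had H3K27me3 in all 4 libraries and 34% had no H3K27ac island. The share with both of these traits was not computed.

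Of 8 genes for TALE homeodomain partners of HOX proteins, 5 carried H3K27ac in all 4 libraries, and 2 of these fell and none rose, where 12.2% of all windows tested were called lower and 10.8% higher. Meis1 had 317 and 306 rpm in WT and 242 and 184 rpm in KO (-0.59, SE 0.157, edgeR adjusted p = 0.0492, close to the 0.05 threshold). Its KO libraries were below its WT libraries without overlap, which held for 28.3% of all windows tested. Pbx4 had 79.2 and 63.5 rpm in WT and 42.1 and 51.6 rpm in KO (-0.65, SE 0.149, edgeR adjusted p = 0.0336). Pbx2, Pbx3 and Pknox1 were not called, with estimates from 0.22 to 0.37. Meis2, Meis3 and Pknox2 had H3K27me3 in all 4 libraries and no H3K27ac. The median over the 5 was 0.22.

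Of 21 genes for known regulators of the Hox clusters, 18 carried H3K27ac in all 4 libraries, with 1 higher, 2 lower and a median of 0.08. These 3 calls among 18 stand beside 23% of all windows tested called in either direction, and the share in the list was not above it. Mllt3, a partner in MLL fusions and a subunit of the super elongation complex, fell from 160 and 186 rpm to 75.5 and 57.0 rpm (-1.43, SE 0.189, edgeR adjusted p = 0.00786). Ezh1, a Polycomb methyltransferase, fell from 71.3 and 65.9 rpm to 37.4 and 44.9 rpm (-0.78, SE 0.128, edgeR adjusted p = 0.0133). Rnf2, a subunit of Polycomb complex PRC1, rose from 79.0 and 81.1 rpm to 107 and 111 rpm (0.40, SE 0.102, edgeR adjusted p = 0.0441). Kmt2a, which encodes the MLL1 methyltransferase, had 146 and 129 rpm in WT and 112 and 112 rpm in KO (-0.34, SE 0.0958, edgeR adjusted p = 0.0571). The Cdx genes, activators of Hox clusters in the embryo, had H3K27me3 in all 4 libraries and no H3K27ac. None of the partner, regulator, ParaHox or neighbouring genes was called for H3K27me3.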

How the data were processed

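The deposited files hold, per library, islands and their counts, whole numbers of reads per island. Per the submitters' processing notes, islands were called with SICER on mm10. Aligner, gap, threshold and control are not given in the sources used here. 3 of 14 samples (inputs and an IgG) were not analysed here. Islands were joined to RefSeq gene spans (GRCm38.p6) with 5 kb on either side, and reads were shared out by overlap, assuming even spread within an island. Windows, and regions merged over 4 libraries, with an island in all 4 were tested over the whole genome with edgeR 4.0.16 (TMM, glmQLFTest, two-sided, Benjamini-Hochberg threshold 0.05) in R 4.3.3, with DESeq2 1.42.0 as an alternative. The fit was tested on simulated data with 200 changed features. Of 100 changes of 2-fold it called 89 in H3K27ac windows and 74 in H3K27ac regions, but 25 and 20 for H3K27me3. Of 100 changes of 4-fold it called 100 and 100 for H3K27ac, and 91 and 92 for H3K27me3. SE comes from the F statistic. The p-values measure the spread between libraries, which may be technical. The labels share replicate numbers, but same-numbered libraries did not deviate together. Named genes are all Hox genes, fixed partner and regulator lists and the 3 nearest genes on each side, and these and the markers were chosen with earlier results of these data known. 1 Hox gene and 2 listed genes are not reported here.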

Additional observations from a re-analysis of the deposited data

How the results depend on the processing

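Places with no island have no count, which limits every test to called islands. The number of Hox windows called lower for H3K27ac was 2 of 10 tested, and it was 5 with DESeq2, 4 with the replicate block, 6 of 13 with 10 kb on either side (5 of the 10, and Hoxb6), 1 of 8 with 2 kb, 3 of 12 with windows in at least 2 libraries or with no filter (the 2, and Hoxb2), 1 with whole island reads, 0 per covered kb, and 0 to 4 when a library was left out. Of the 4 tested Hox regions 2 were called, against 0 of these 4 with regions in at least 2 libraries, where the 1 Hox call was the stretch next to Hoxb2, 0 per covered kb, and 0 to 2 when a library was left out. The Hoxb2 window and stretch entered these tests only through WT islands, with KO taken as 0 reads, so their calls are not further support. Genome-wide, calls for H3K27ac windows were 2961 against 0 per covered kb (1670 with an unadjusted p under 0.05) and 671 to 1893 when a library was left out. For H3K27ac regions they were 4846 against 8514 with regions in at least 2 libraries, 368 per covered kb, and 2496 to 3286. Of the region calls 45.6% were higher in KO, against 61.2% without TMM, where the median shifted to 0.12, and 23.1% per covered kb. H3K27me3 windows gave 0 calls against 58 with DESeq2, 1 without TMM, 9 per covered kb and 0 to 3 when a library was left out, and H3K27me3 regions gave 1 against 34, 10, 4 and 0 to 10, with 0 for regions in at least 2 libraries and 0 with the replicate block. No Hox window or region was called for H3K27me3 in any of these.

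The replicate block added Hoxa7 and Hoxb5 to the windows called lower and changed no other Hox call. Numbers did not pair the libraries, with correlations of deviations of 0.03 and -0.01 for windows and 0.05 and -0.05 for regions of H3K27ac and H3K27me3.

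Some estimates changed sign with island cover, with the width of the window, with the way reads were shared out, with the filter or when a library was left out. Per covered kb, Hoxb3 was 0.027 and Hoxb4 0.19, and the H3K27me3 region within Hoxa3 was 0.040. With 2 kb on either side Hoxb4 was 0.15. When a library was left out, Hoxa6 H3K27ac ranged from -0.45 to 0.13. H3K27me3 ranged from -0.0097 to 0.53 for the Hoxa sum and from -0.012 to 0.44 for the Hoxd sum, with the negative value in each case the one without WT 1. The Hoxc sum was -0.10 with whole island reads. H3K27me3 regions ranged from -0.028 to 0.12 at Hoxc, where the estimate was also -0.0025 with regions in at least 2 libraries, from -0.086 to 0.30 at Hoxd, from -0.062 to 0.37 at Hoxa2 and from -0.073 to 0.39 from Hoxa6 to Hoxa13. The cause of these changes was not tested.

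With islands required over 50% of a window, 5 Hox genes carried H3K27ac in both WT libraries (9.43% of all genes), 2 in both KO libraries (9.07%), and 0 carried UTX in both libraries (0.0274%). With any island, UTX library 1 alone met 15 Hox windows and library 2 alone 9.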
